A study of Mus musculus with 352 samples.

Results

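The data described here are gene expression values from the tibialis anterior muscle of 49 C57BL/6 mice in which the clock gene Bmal1 had been restored in skeletal muscle, out of 352 mice in the series. The mice were chosen by genotype, age and feeding alone: all mice labelled Mu-RE that were fed ad libitum at 10-12 weeks (25 mice) or at 26 weeks (24 mice) were pooled, and each value was centred on the mean of its age, or of its age and time of day. Their genotype is Bmal1 stopFL/stopFL with Hsa-Cre -/tg, so a stop cassette in both copies of Bmal1 (gene symbol Arntl) was removed by Cre under the human skeletal actin promoter, which acts in muscle fibres; cells of other kinds in the same muscle keep the cassette. The reference groups were 47 KO mice of both ages (Bmal1 stopFL/stopFL, Cre -/-), which carry the cassette in every cell, and 45 wild-type (WT) mice of both ages, all fed ad libitum. A further 23 Mu-RE mice of 26 weeks on time-restricted feeding (TRF) were not used in choosing the mice. Muscle was taken every 4 h over a day, at ZT 0 to ZT 20 (zeitgeber time, counted from when the lights come on), from 3 to 5 mice of both sexes per age, genotype and time. The question was whether muscles that carry a restored clock gene but sit in a clockless animal show clocks of ordinary size that are out of step between mice, or a clock that varies little.

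In the mammalian clock, ARNTL (BMAL1) and CLOCK bind E-box motifs and activate the Per and Cry genes, whose proteins then inhibit them. The same activators drive Nr1d1, whose product REV-ERBα represses Arntl through ROR response elements, and Dbp, whose product activates genes through D-box motifs, among them Per3. In an intact animal the arms of this loop therefore peak at different times of day, with Arntl opposite to Dbp and the Per genes. In a mouse muscle, food intake, hormones and body temperature set the phase of this loop.

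Motifs of these kinds were found by letters in promoter windows of the RefSeq table (build GRCm38.p6, 250 bases before to 50 after each start), which held 13 of the 16 clock genes tested, 9 of them with at least 1 motif. They are shown for the genes whose scatter between mice is described below, in the direction of transcription, with each motif in capitals.
Arntl, chr7:113207530-113207558, plus strand, just after an annotated start: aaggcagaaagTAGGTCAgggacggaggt
Nr1d1, chr11:98775378-98775430, minus strand: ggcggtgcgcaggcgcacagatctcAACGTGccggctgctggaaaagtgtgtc
Per3, chr4:151044791-151044895, minus strand: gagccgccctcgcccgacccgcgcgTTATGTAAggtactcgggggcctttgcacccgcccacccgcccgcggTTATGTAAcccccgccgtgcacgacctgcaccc
Tef, chr15:81802521-81802576, plus strand: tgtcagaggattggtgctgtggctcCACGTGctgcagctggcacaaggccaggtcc
Arntl has the core of a ROR response element (TAGGTCA or TGGGTCA was searched), Nr1d1 an E'-box (CACGTT, read here on the other strand), Per3 a pair of D-boxes (TTATGTAA or TTACGTAA) and Tef an E-box (CACGTG). On both strands, these letters occurred in 6.45%, 4.69%, 1.06% and 7.15% of all 32851 windows of 300 bases, respectively. The Dbp window held none of them, and a match describes letters, not a bound site.

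Deposited values were log2 FPKM for 14413 genes, of which 9862 with a mean of at least 0 were tested. Depth, recovered from the step that 1 read makes in low values, was 14.75 to 47.82 M reads over the 164 libraries used here (M, mega; median 22.01 M), and lay between 15.8 and 29.0 M in the Mu-RE mice. Fast-fibre genes dominated in the Mu-RE libraries, as the tissue label requires (Myh4, the main fast myosin, had a median of 12.91 log2 FPKM). Tnnc2, on the same list of 11 fast-fibre genes, was an exception with a median of 0.76. It was low in KO and WT mice too (0.93 and 0.59), and the reason was not tested. In all, 6 libraries lay more than 1.5 times the usual distance from their group's median profile: Mu-RE 26 weeks replicate 9 (ZT 8), KO 26 weeks replicates 3, 11 and 15, WT 10 weeks replicate 1 and Mu-RE TRF replicate 15; results that rest on them are given with and without them. In whole muscle, fewer cells of a type and less RNA per cell cannot be told apart. The labels do not say whether mice came from separate litters or cages.

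Arntl (ENSMUSG00000055116, chr7:113207465-113314126, plus strand) varied between Mu-RE mice of the same time. Its medians ran from 2.43 at ZT 12 to 3.15 at ZT 16, and in WT mice from 1.075 at ZT 12 to 3.62 at ZT 20. Over all 49 it ran from 1.39 to 3.79 log2 FPKM with a median of 2.73. At ZT 0 the lowest, median and highest mouse had 2.63, 2.76 and 3.54, at ZT 4 2.37, 2.79 and 2.96, and at ZT 8 2.24, 2.5 and 3.79. At ZT 12 they had 1.39, 2.43 and 2.77, at ZT 16 2.01, 3.15 and 3.52, and at ZT 20 2.24, 2.78 and 3.13. The highest mouse of every time lay above the lowest mouse of every other time, whereas in WT muscle the mice of ZT 12 (0.78 to 1.51) lay below all mice of the other times. KO mice had 3.03 to 4.31 at all times, above the Mu-RE median in each of the 47. Reads over the whole gene were counted, so this level does not tell transcripts that run past the stop cassette from those that do not.

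Dbp (chr7:45705088-45710203, plus strand), a direct target of ARNTL, was the most scattered of the clock genes named by the rule. It ran from 0.56 to 4.43 log2 FPKM in Mu-RE mice (median 3.04), against -1.0 to 0.97 in KO mice (median 0.21) and -0.02 to 4.96 in WT mice (median 3.45). At ZT 16 alone the Mu-RE mice ran from 0.56 to 3.36, while WT mice of that time ran from 2.68 to 4.04. Of the other Mu-RE medians, Per3, a period gene with weak feedback action, had 1.63, Per2, a main repressor of the loop, 0.74, and Nr1d1 3.76. The KO medians were -1.72, -0.49 and 1.69. These low KO values rested on a median of about 66 reads for Per3, 96 for Per2 and 80 for Dbp, where counting alone gives an SD of about 0.18, 0.15 and 0.16 on the log2 scale; in the Mu-RE mice it gives 0.06, 0.10 and 0.06.

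**Figure D1:**
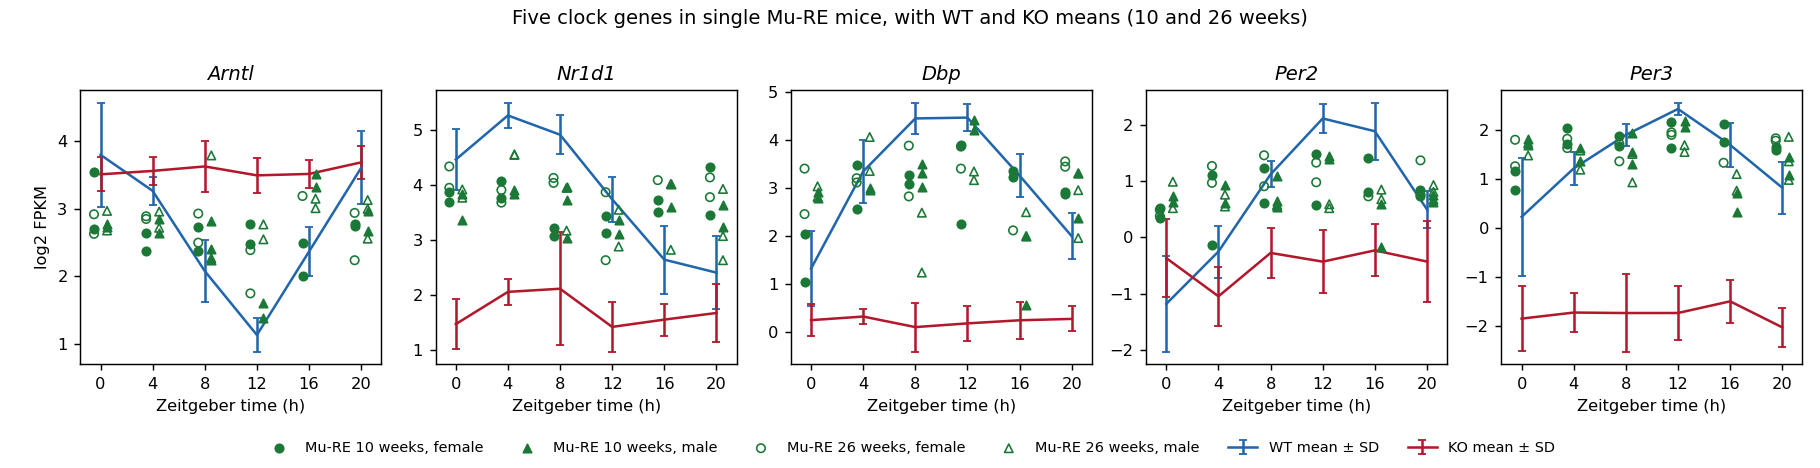
Log2 FPKM of Arntl, Nr1d1, Dbp, Per2 and Per3 against zeitgeber time in hours; each green symbol is 1 Mu-RE mouse (filled 10-12 weeks, open 26 weeks, circles female, triangles male), and lines give the WT and KO means with their SD (7 to 9 mice per time). The Mu-RE symbols overlap between times, and for Dbp they run from 0.56 to 4.43.

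Single mice showed which genes moved together. Of the 10-week mice at ZT 12, the males had Arntl at 1.39 and 1.61 and Dbp at 4.22 and 4.43, while a female (replicate 14) had Arntl at 2.77 and Dbp at 2.25. At ZT 16 the males of that age had Arntl at 3.33 and 3.52 with Dbp at 2.00 and 0.56, and the females had Arntl at 2.5 and 2.01 with Dbp at 3.36 and 3.23. A 10-week female at ZT 0 had Arntl at 3.54 with Dbp at 1.05, and the 26-week male at ZT 8 that stood apart had Arntl at 3.79 with Dbp at 1.24. In each of these mice Arntl and Dbp lay on opposite sides of their companions of the same age and time. They were picked as examples, and not every mouse followed. The other 10-week female at ZT 12 (replicate 13) had Arntl at 2.48 and Dbp at 3.9. Both lay above the means of that age and time (2.06 and 3.70).

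The pooled rhythm over the 6 times was small. A 24-h cosine with age and sex in limma called 13 of 9862 genes (0.132%) in the 49 Mu-RE mice at a Benjamini-Hochberg adjusted p under 0.05, against 6 (0.0608%) in KO and 716 (7.26%) in WT mice; 1224 genes had an unadjusted p under 0.05 in Mu-RE mice. None of the 16 clock genes tested was among the 13, 1 passed in KO mice (Cry1) and 13 passed in WT mice. The amplitude of Arntl, from mean to peak on the log2 scale, was 0.21 (SE 0.08) in Mu-RE, 1.32 (SE 0.10) in WT and 0.03 (SE 0.04) in KO mice. The Mu-RE adjusted p was 0.40 (limma).

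For the target genes the amplitude in Mu-RE mice was 0.29 (SE 0.15) for Dbp, 0.28 (SE 0.09) for Nr1d1, 0.15 (SE 0.07) for Per2 and 0.14 (SE 0.07) for Per3. In WT mice the same genes had 1.62, 1.5, 1.6 and 1.01. KO mice had 0.07 (SE 0.06), 0.27 (SE 0.11), 0.24 (SE 0.12) and 0.13 (SE 0.11) in the same order. Apart from Dbp, these amplitudes were thus about as large in KO as in Mu-RE mice, or larger. The Mu-RE amplitudes were 16.1% of WT for Arntl, 18.1% for Dbp, 18.6% for Nr1d1, 9.41% for Per2 and 13.7% for Per3. Between Mu-RE and WT, 13 of the 16 clock genes differed in rhythm (limma, adjusted p under 0.05), where 2.83% of all genes did; the adjusted p was 8.21e-09 for Arntl and 2.10e-06 for Dbp. Between Mu-RE and KO, limma called no gene (0.0%), with 155 at an unadjusted p under 0.05, and between the 2 ages of Mu-RE mice none (0.0%), with 1440 at an unadjusted p under 0.05. Arntl amplitude was 0.33 (SE 0.12) at 10-12 weeks and 0.10 (SE 0.11) at 26 weeks, and Dbp had 0.53 (SE 0.22) and 0.17 (SE 0.20).

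The genes with a pooled rhythm were of another kind. Among those with the smallest p were Gnas, the stimulatory G protein subunit, Cebpb, a transcription factor that hormones induce, Taf10 of the basal transcription machinery, the predicted gene Gm44349, Ccdc85c, Pithd1, Vegfb, Frat1 and Rab24. Cebpb had an amplitude of 1.0 (SE 0.16) with a peak at ZT 16.3, and Gnas 0.93 (SE 0.15) at ZT 16.3 (limma, adjusted p = 0.00467 for each). KO mice had 0.81 (SE 0.15) at ZT 15.2 for Cebpb and 0.70 (SE 0.13) at ZT 14.3 for Gnas. The pooled Mu-RE peaks lay between those of the ages fitted alone. Cebpb peaked at ZT 14.8 in the younger and 17.96 in the older Mu-RE mice, and Gnas at ZT 14.32 and 18.1. The other genes named above also peaked earlier in the younger mice. Gm44349 had an amplitude of 1.07 in the younger and 0.18 in the older mice. The age difference in rhythm did not pass for these genes (limma, adjusted p = 0.29 for Cebpb, 0.21 for Gnas and 0.082 for Gm44349). Of the 13 genes, 5 also passed in KO and 7 in WT mice. The count was 0 to 7 when 1 mouse of each age and time was left out, 61 with a term for the dependence of each library on gene length, and 20 without the libraries that stood apart. Reads of Gnas and of its antisense neighbour cannot be told apart in these values.

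Over the whole day, the clock genes spread less between Mu-RE mice than between WT mice. The SD of values centred by age was 0.44 in Mu-RE and 1.04 in WT mice for Arntl, a ratio of 0.426. It was 0.77 and 1.25 for Dbp (ratio 0.619), 0.46 and 1.19 for Nr1d1 (0.387), 0.37 and 1.26 for Per2 (0.292) and 0.41 and 0.90 for Per3 (0.452). All 5 ratios passed a two-sided permutation test with genotype labels exchanged within age (adjusted p from 1.67e-05 to 0.00091). Of that spread, 22.2% to 37.3% lay between times in Mu-RE mice, 13.3% to 32.3% in KO mice and 77.0% to 89.6% in WT mice; with 6 times some share arises in any set of mice.

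Within 1 age and time, Arntl and Dbp scattered about 2 times as much as in KO muscle. The SD was 0.36 in Mu-RE and 0.19 in KO mice for Arntl, and 0.61 and 0.31 for Dbp (ratios 1.95 and 1.99). An exact two-sided permutation test that exchanged whole sets of mice of 1 age and time between genotypes (4096 exchanges, 12 sets) gave an adjusted p of 0.0456 for both, and of 0.0281 for both without the libraries that stood apart. Per2 scattered less than in KO mice (SD 0.32 and 0.50 in Mu-RE and KO mice, exact permutation adjusted p = 0.0456, 0.0806 without the libraries that stood apart), and Per3 and Nr1d1 gave adjusted p of 0.167 and 0.759 in the same test. The Per2 and Per3 values of KO mice are the low ones described above, and on a log2(FPKM + 1) scale, which damps low values, the Per3 ratio turned to the other direction. Against WT mice none of the 5 passed the exact permutation test (adjusted p from 0.52 to 0.899); the Dbp ratio was 1.52 and the Arntl ratio 1.04. By median absolute deviation, which gives less weight to far mice, 0 of the 5 ratios to KO passed the permutation test of single mice.

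**Figure D2:**
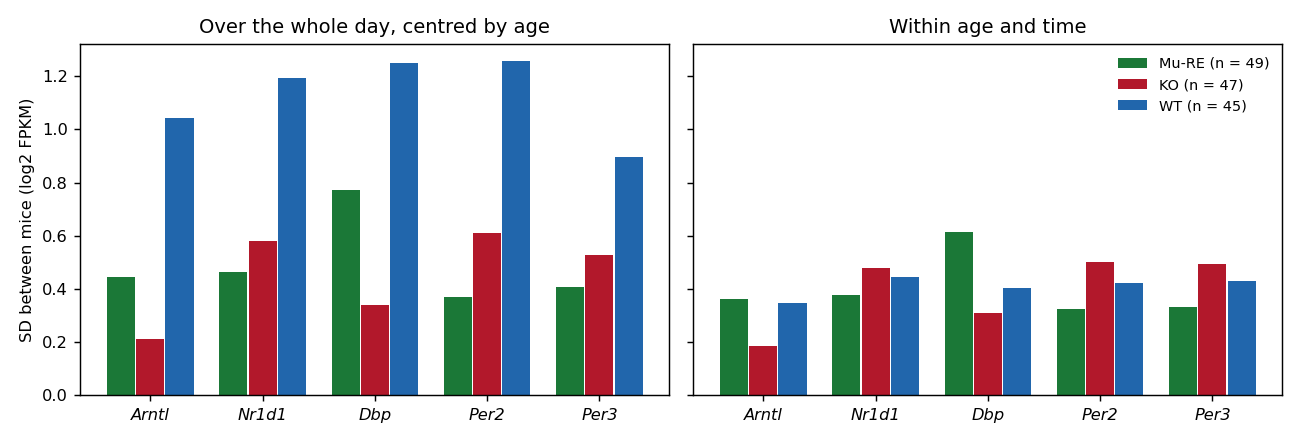
SD between mice in log2 FPKM for the clock genes named by the rule, over the whole day after centring by age (left) and within age and time (right), in Mu-RE, KO and WT mice. The Mu-RE bars for Arntl (0.44) and Dbp (0.77) lie between KO and WT on the left, and on the right they exceed the KO bars.

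Scatter was also tested over all genes, as the mean deviation of a mouse from its age and time. Across the 9862 genes the median ratio of SDs, Mu-RE to KO, was 0.775, and 11.3% of genes had a larger SD in Mu-RE mice; without the libraries that stood apart it was 27.2%. The Arntl and Dbp ratios lay at the 99.9th percentile of all genes, with and without those libraries. Nr1d1 lay at the 53.5th (93.5th without those libraries), Per2 at the 19.3th (8.98th) and Per3 at the 26.2th (30.1th). On single mice, limma called 11 genes with larger scatter in Mu-RE (0.112%) and 1221 with smaller scatter (12.4%), and 8 and 150 without the libraries that stood apart. Arntl (adjusted p = 0.0192) and Dbp (adjusted p = 0.0283) were among the 11 (limma). Deviations from the mean of a few mice are not independent, so a version with 1 value per age, time and genotype was added: there limma called 0 genes, with 1834 at an unadjusted p under 0.05, and Arntl and Dbp had unadjusted p of 0.0204 and 0.0139. No gene is therefore described as changed in scatter from this test.

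Between Mu-RE mice of the same age and time, the clock genes varied together in the arrangement of the loop. Residuals after age, time and sex were correlated over the 49 mice for 10 pairs, with a two-sided permutation test within age and time, and p adjusted over the 10. Arntl ran against Dbp with Pearson r = -0.704 (Spearman rho -0.585, adjusted permutation p = 0.0007 and 0.00225). It ran against Per3 with r = -0.624 (rho -0.586, adjusted permutation p = 0.001 and 0.00227) and against Per2 with r = -0.518 (rho -0.474, adjusted permutation p = 0.00486 and 0.00618). Dbp and Per3 varied together with r = 0.821 (rho 0.772, permutation p = 1e-05 for both, the smallest these permutations can give, adjusted p = 0.0001).

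Dbp and Per2 had r = 0.601 (rho 0.476, adjusted permutation p = 0.00125 and 0.00618), and Per2 and Per3 r = 0.411 (rho 0.321, adjusted permutation p = 0.0389 and 0.0912). Nr1d1 stood outside this pattern: its r was 0.258 with Arntl, 0.169 with Dbp, -0.096 with Per2 and -0.030 with Per3, and none passed (adjusted permutation p from 0.088 to 0.819). It did so in WT mice too, with r of 0.164, 0.0002, -0.216 and -0.071 in the same order. Without the 2 mice farthest from the median of the first gene, r was -0.647 for Arntl and Dbp, -0.598 for Arntl and Per3, -0.460 for Arntl and Per2, 0.776 for Dbp and Per3, 0.456 for Dbp and Per2 and 0.330 for Per2 and Per3. Within the 25 mice of 10-12 weeks and the 24 of 26 weeks, Arntl and Dbp had r = -0.788 and -0.563, and Dbp and Per3 had 0.886 and 0.686. Arntl and Per3 had -0.716 and -0.445, and Arntl and Per2 -0.622 and -0.323. Dbp and Per2 had 0.73 and 0.33, and Per2 and Per3 0.499 and 0.175. The direction of all 6 pairs that passed was the same at both ages, and each r was weaker at 26 weeks.

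In KO mice, Arntl and Dbp ran against each other too, with r = -0.436 (adjusted permutation p = 0.0443), which was -0.127 without the 3 KO libraries that stood apart; Dbp and Per3 had 0.194 and Dbp and Per2 -0.477 (-0.330 without them). The difference between Mu-RE and KO passed the exact permutation test of exchanged sets for Dbp and Per2 (adjusted p = 0.0293, with and without the libraries that stood apart) and, without those libraries, for Dbp and Per3 (adjusted p = 0.0244; 0.0749 with them). For Arntl and Dbp the adjusted p of the difference was 0.259 in that test, and 0.0762 without those libraries. Between Mu-RE and WT no pair of the 10 differed (exact permutation adjusted p from 0.92 to 0.978). WT mice had r = -0.655 for Arntl and Dbp, -0.714 for Arntl and Per3 and 0.716 for Dbp and Per3 within age and time.

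**Figure D3:**
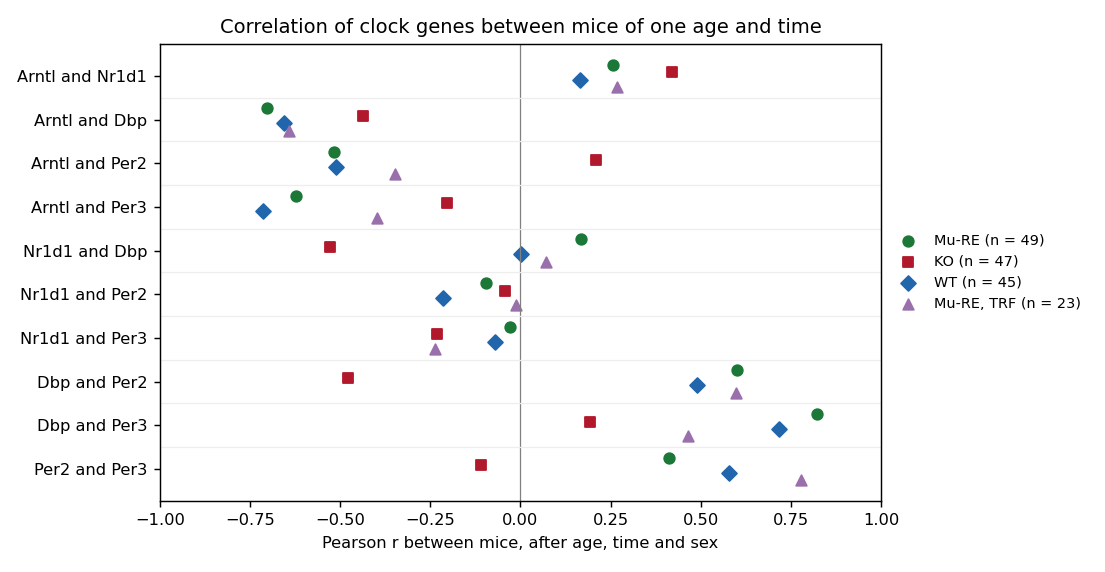
Pearson r between mice for each of 10 pairs of clock genes, after age, time and sex, in Mu-RE (circles), KO (squares), WT (diamonds) and Mu-RE TRF mice (triangles). For Arntl with Dbp the Mu-RE and WT points lie at -0.704 and -0.655, and for Dbp with Per2 the KO point lies at -0.477, opposite to the other groups.

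**Figure D4:**
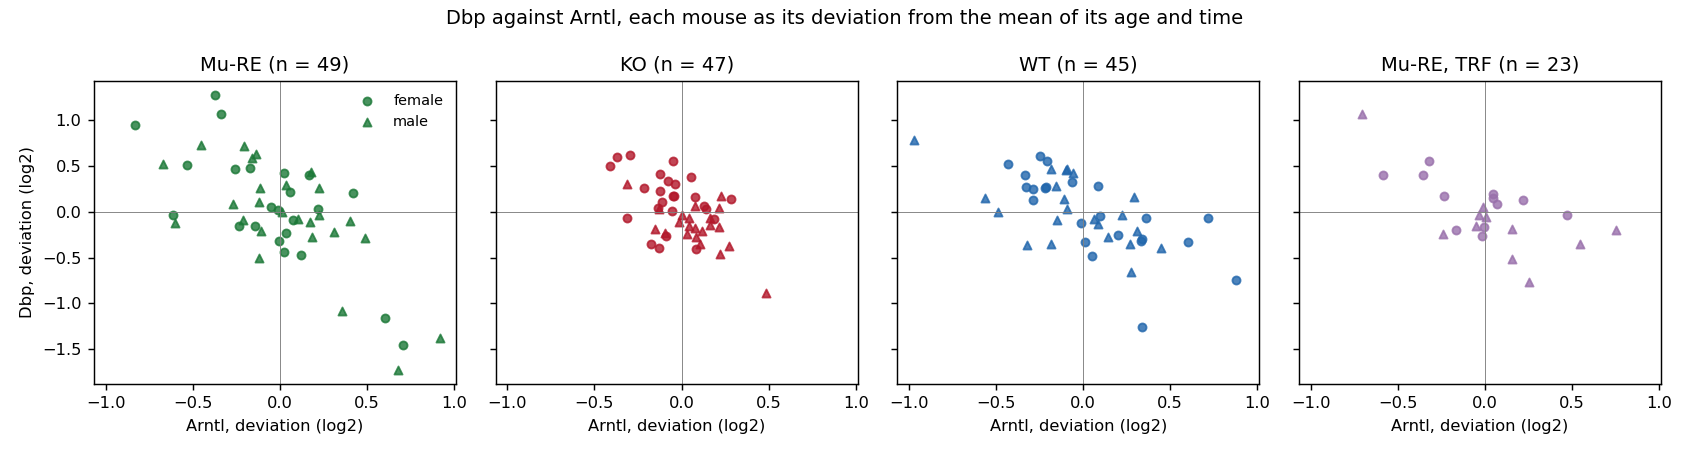
Deviation of Dbp against deviation of Arntl from the mean of the mouse's own age and time (log2), 1 symbol per mouse, females as circles and males as triangles. In the Mu-RE panel the mice with the highest Arntl are those with the lowest Dbp; KO mice fill a smaller range of Arntl (SD 0.19 against 0.36).

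Part of this scatter followed sex within a time point. Of the sum of squares within age and time in Mu-RE mice, 53.7% of Arntl, 59.9% of Dbp and 68.0% of Per3 lay between the means of females and males of the same age and time, which take 32.4% of the degrees of freedom. In WT mice it was 57.5%, 48.8% and 67.7% (36.4% of the degrees of freedom). By the authors' processing, female and male means are equal for each gene over 259 deposited libraries of several genotypes, ages and feedings. They need not be equal within the Mu-RE mice alone. Whether the sexes differed at single times or in overall level was not tested. Within age, time and sex, where a set holds only 1 to 3 mice, r was 0.817 for Dbp and Per3, -0.498 for Arntl and Dbp and -0.414 for Arntl and Per3, and 1 of the 10 pairs, Dbp and Per3, passed the permutation test. The r of Dbp and Per2 was 0.452, of Arntl and Per2 -0.301 and of Per2 and Per3 0.082, and that of Arntl and Nr1d1 was 0.473, which did not pass. Mice of 1 sex at 1 time may share further conditions that the labels do not give; their part in the result was not tested.

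A clock state was computed for each mouse from the 13 clock genes with a rhythm in WT mice, as a vector in the plane of the WT cycle, where the WT mean has length 1 and the angle gives the phase in hours. Lengths in Mu-RE mice ran from 0.027 to 1.03 with a median of 0.277. In KO mice they ran from 0.019 to 0.713 (median 0.288), and in WT mice, which set the scale, from 0.617 to 1.85 (median 0.988). The share of a mouse's deviation over the 13 genes that lay in that plane had a median of 42.4% in Mu-RE, 27.5% in KO and 88.3% in WT mice. A length of at least 0.5 was reached by 10 of 49 Mu-RE, 6 of 47 KO and 45 of 45 WT mice.

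Of those 10 Mu-RE mice, 9 had a phase within 6 h of their own time of sampling, as did 5 of those 6 KO mice. The 26-week male replicate 25 at ZT 20 had a length of 1.03 and a phase of 18.4 h, and the 26-week male replicate 20 at ZT 16 had 0.890 and 18.8 h. The 10-week male replicate 20 at ZT 16, with a length of 0.832 and a phase of 22.2 h, was the 1 of the 10 beyond 6 h. Over all Mu-RE mice, long and short vectors together, the phase lay within 3 h of the time of sampling in 21 of 49, in 19 of 47 KO mice and in 45 of 45 WT mice. The mean projection on the time of sampling was 0.144 in Mu-RE, 0.129 in KO and 0.993 in WT mice. Around the mean of its age and time, a vector's root mean square deviation was 0.388 in Mu-RE, 0.300 in KO and 0.409 in WT mice. These are descriptions, since the plane was taken from the WT mice and each mouse was centred on the mean of its own genotype and age. Centred on the WT mean of the age instead, so that mean levels count as well, lengths had a median of 0.327 in Mu-RE mice, with 12 of 49 at 0.5 or more and a median share in the plane of 23.7%. In KO mice they then ran from 1.65 to 2.47 (median 2.05), with 47 of 47 at 0.5 or more.

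**Figure D5:**
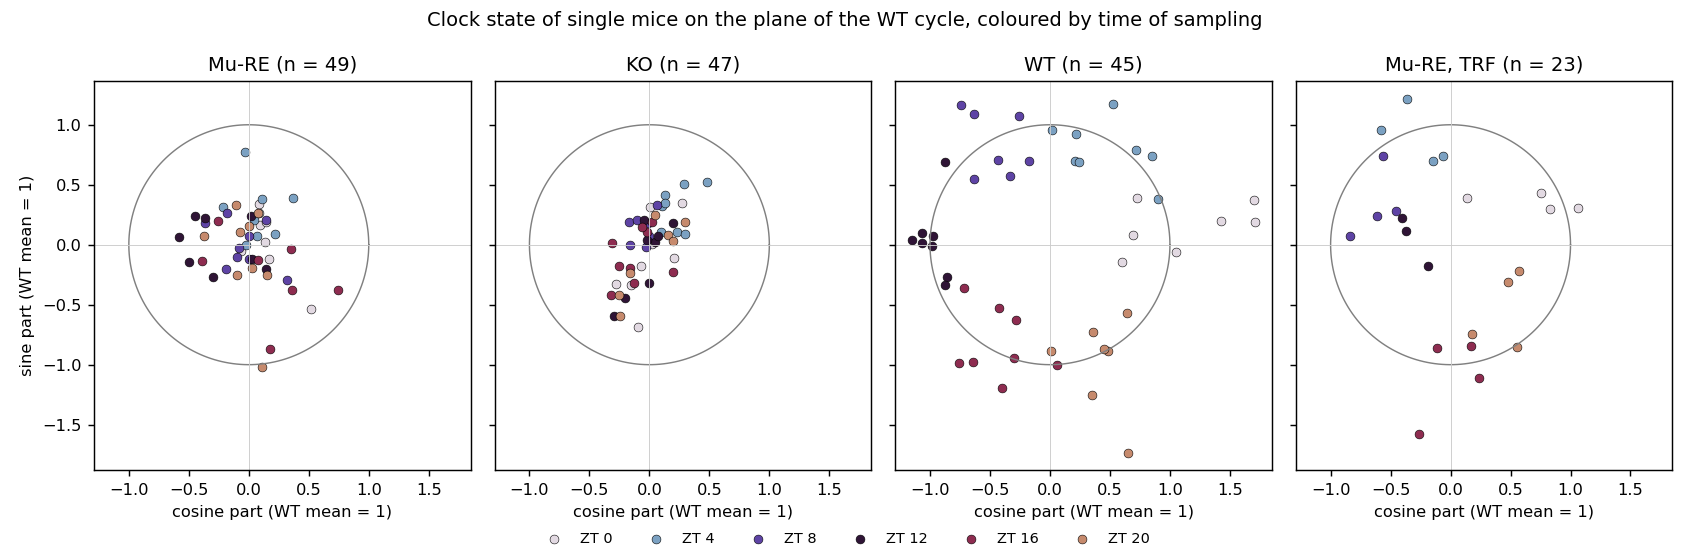
Vector of each mouse in the plane of the WT cycle (axes in units of the WT mean length, circle at length 1), coloured by time of sampling, for Mu-RE, KO, WT and Mu-RE TRF mice. Most Mu-RE mice lie near the centre (median length 0.277), with single mice near the circle, while WT mice lie in order of time around it.

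Across all genes, few followed Arntl between Mu-RE mice. The slope on Arntl within age and time, with sex, was tested in limma over 9861 genes, and 8 passed at an adjusted p under 0.05 (0.0811%), 4 upward (0.0406%) and 4 downward (0.0406%); 848 genes had an unadjusted p under 0.05 (8.6%). Dbp fell by 1.19 (SE 0.20) on the log2 scale per log2 unit of Arntl (limma, adjusted p = 0.0025). Per3 fell by 0.53 (SE 0.11) and Tef, a relative of Dbp that binds the same D-boxes, by 0.27 (SE 0.06), with adjusted p of 0.0387 and 0.0436 (limma). Acat2, a thiolase of sterol synthesis, fell by 0.44 (SE 0.09).

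Slc16a9, a member of the monocarboxylate transporter family, rose by 0.88 (SE 0.12) per log2 unit of Arntl (limma, adjusted p = 8.3e-05). In single mice it was -0.53 and -0.37 log2 FPKM in the 10-week males of ZT 12, in which Arntl was lowest, and 1.15 and 1.44 in the males of ZT 16 described above. Syne1, which anchors nuclei in the fibre, rose by 0.28 (SE 0.05), Sesn1, a stress-induced regulator of nutrient signalling, by 0.47 (SE 0.09), and Lrrc30 by 0.38 (SE 0.08). The direction was the same at both ages for each of the 8 genes. The count was 1 to 2 when 1 mouse of each age and time was left out, 4 without replicate 9 of the 26-week mice, and 2 within age, time and sex. Without replicate 9, 2 of the 8 genes still passed, Slc16a9 and Dbp (limma, adjusted p = 0.00021 and 0.024). Per3 and Tef then had adjusted p of 0.0716 and 0.267, and Acat2, Syne1, Sesn1 and Lrrc30 0.183, 0.183, 0.316 and 0.179 (limma). Within age, time and sex 1 of the 8 passed, Syne1 (limma, adjusted p = 0.0366). There the slope was -0.78 for Dbp and -0.32 for Per3, and the adjusted p was 0.0787 for Slc16a9, 0.202 for Dbp, 0.285 for Per3 and 0.173 for Tef (limma).

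The same slopes in the other mice are given side by side. Slc16a9 had 0.47 (SE 0.14) in WT, 0.68 (SE 0.18) in Mu-RE TRF and 0.11 (SE 0.25) in KO mice. Dbp had -0.77 (SE 0.15), -0.70 (SE 0.20) and -0.69 (SE 0.25), and Per3 had -0.89 (SE 0.15), -0.25 (SE 0.14) and -0.59 (SE 0.49). Tef had -0.35, -0.15 and 0.16, Acat2 -0.29, -0.34 and -1.01, Syne1 0.21, 0.33 and 0.71, Sesn1 0.29, -0.01 and 1.18, and Lrrc30 -0.22, 0.24 and -0.29, in the same order. So Lrrc30, Sesn1 and Tef did not keep their direction in every group. In WT mice limma called 52 genes (0.527%), 3 of the 8 among them (Dbp, Per3 and Tef, adjusted p = 0.0107, 0.00974 and 0.0196). Without WT 10 weeks replicate 1 it called 0, with 744 at an unadjusted p under 0.05, and the 3 genes had adjusted p of 0.181, 0.151 and 0.223 (limma). In KO mice 3 of the 8 passed as well (Dbp, Syne1 and Acat2), and 1, Syne1, without the libraries that stood apart, where the Dbp slope was -0.20. In Mu-RE TRF mice it called 0 (0.0%), with 937 at an unadjusted p under 0.05. In KO mice 3249 genes passed (32.9%), 1758 upward (17.8%) and 1491 downward (15.1%). There, however, Arntl moved with the dependence of the library on gene length (r = 0.597, rho 0.559, n = 47, permutation p = 5e-05 and 0.00052, adjusted p for r 0.0002; r = 0.619 without the 2 farthest mice), whereas in Mu-RE mice r was 0.202 (rho 0.128, adjusted permutation p = 0.233). With that dependence as a term 797 genes passed in KO mice.

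The slopes of Mu-RE and KO mice differed for 3293 genes (33.4%; limma), 1483 higher and 1810 lower in Mu-RE mice, and for 1821 without the libraries that stood apart and 899 with the length term. The 10 with the smallest p were Ubqln1, AW112010, Nup210, Fto, Thrap3, Mypn, Fry, Ubr2, Gaa and Sik3. Their slopes in Mu-RE mice lay between -0.02 for AW112010 and 0.13 for Gaa, the lysosomal glucosidase, and these genes had -2.07 and 1.37 in KO mice. Among clock genes, Bhlhe40, a repressor that competes for E-boxes, had a slope of 0.01 in Mu-RE and 1.31 in KO mice (adjusted p of the difference 0.00537, limma; 0.0303 without the libraries that stood apart), and Cry2, Per1, Per2 and Tef also passed, none of them without those libraries.

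The genes that cycle in WT muscle were lined up by their WT peak, as a description. Of the 175 that peak within 3 h of Arntl, 72.6% had a positive slope on Arntl between Mu-RE mice (median 0.06), and of the 200 that peak 9 to 15 h later, 55.5% did (median 0.02), against 46.3% of all 9861 genes. In WT mice the shares were 90.3% and 28.0%. In KO mice they were 58.3% and 77.0%. Without the libraries that stood apart the early set had 68.0% in Mu-RE and 67.4% in KO mice. The 198 genes that peak 3 to 9 h after Arntl had 71.7% in both Mu-RE and WT mice and 79.3% in KO mice. The 142 genes that peak 3 to 9 h before Arntl had 47.2% in Mu-RE, 37.3% in WT and 53.5% in KO mice. Of all 9861 genes, 54.3% had a positive slope in WT and 50.3% in KO mice. Over genes of any WT amplitude, a lean with Arntl was thus seen in both restored and KO mice and not in the early set alone. In both, the set that peaks 3 to 9 h before Arntl lay nearest to all genes. Genes with a WT amplitude of at least 0.5 were also lined up. Of these, the 25 early genes had 80.0% in Mu-RE, 92.0% in WT and 40.0% in KO mice (48.0% without the libraries that stood apart). In the same order, the 15 that peak 3 to 9 h after had 93.3%, 86.7% and 80.0% (40.0%). For the 33 that peak 9 to 15 h after, the shares were 60.6%, 12.1% and 75.8% (54.55%). For the 24 that peak 3 to 9 h before, they were 62.5%, 37.5% and 62.5% (62.5%).

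By role, and beside the 0.0811% of all genes called, the clock genes with a called slope were 1 of 7 repressors (Per3) and 2 of 3 output factors (Dbp and Tef), and 0 of 4 receptors and 0 of 1 activator; Clock, the partner of ARNTL, had a slope of 0.26 (SE 0.08, limma adjusted p = 0.27) and Nfil3, which opposes Dbp at D-boxes, 0.62 (SE 0.18, adjusted p = 0.23). Outside the clock no gene of the other 20 lists had a called slope in Mu-RE mice. The genes described as depending on Bmal1 in muscle, such as Hk2 and Tbc1d1 of glucose handling, gave 0 of 10 calls with a median slope of -0.09; with so small a share of all genes called, a list of this size with no call does not stand apart. The 14 glucocorticoid-response genes gave 0 of 14 calls. All 14 slopes lay above 0 (median 0.34), as did 46.3% of all genes. Of the 14, 5 had an unadjusted p under 0.05 (limma), as did 8.6% of all genes. In KO mice all 14 slopes lay above 0 too, with a median of 1.22 (0.13 without the libraries that stood apart). In WT mice their median was 0.01. Genes of oxidative phosphorylation gave 0 of 15 (median -0.07), and over all genes the median was -0.01.

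Markers of other cell types gave no called slope either. The summed level of 8 macrophage genes ran from 13.5 to 56.6 FPKM in Mu-RE and 12.4 to 53.6 in KO mice, that of 7 fibroblast genes from 43.3 to 308.0 and 29.1 to 302.2, and that of 5 red-cell genes from 39.9 to 405.2 and 43.1 to 555.5. In KO mice 4 of the 5 red-cell genes fell with Arntl (median slope -1.96), and 0 of 5 passed in Mu-RE mice (median 0.30); the part of blood in the KO slopes was not tested.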

How the data were processed

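The submitters' processing notes list, with no order or role, the build GRCm38, limma 3.44.1, edgeR 3.30.0, HISAT2 2.1.0, Trim Galore 0.5.0, FastQC 0.11.8 and featureCounts 1.6.2. The deposited table holds log2 FPKM from the authors; tested on the file, a value is log2(FPKM + 0.01) plus a constant per gene and sex, so sex means are equal over 259 libraries. Genes with a mean of at least 0 were kept. Limma 3.58.1 (trend, robust; R 4.3.3) fitted a 24-h cosine with age and sex, or a slope on Arntl within age and time with sex. Correlations and SDs used 100000 permutations (Python 3.11.15). A call is a Benjamini-Hochberg adjusted p under 0.05. On simulated data the scatter test on single mice called too many unchanged genes, so tests with whole age and time sets were added after seeing the data, as were sets of 1 age, time and sex and leaving out libraries that stood apart. Named genes were the rule's clock genes, other called clock genes, and per comparison the called genes with the smallest p (10 for rhythm and difference, 10 per direction for slope); the genes called for scatter were not named beyond the clock, because none passed with whole sets. One gene that the rule names is not reported here. The members and lists were chosen with earlier results of these data known. GENCODE M21 gave gene lengths and coordinates. P-values measure the spread between these mice.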

Additional observations from a re-analysis of the deposited data

Results flagged for a closer look

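Over the clock genes of the rule and the sets of 4 or 5 Mu-RE mice of 1 age and time, 55 combinations of gene and set were examined. A single mouse lay far from its companions in 2 of them, where chance gives about 1 in 20: Arntl at 3.54 log2 FPKM in a 10-week Mu-RE female at ZT 0 (the next mouse had 2.78), and Per2 at 0.57 in a 10-week Mu-RE female at ZT 12 (the next had 1.4).

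The slope on Arntl differed between Mu-RE and KO mice in limma for 5 of the 15 clock genes tested. Over all genes 33.4% were called, so the clock genes do not stand apart by this count. The difference, Mu-RE minus KO, was -1.67 for Per1, -1.07 for Per2, -1.16 for Cry2, -1.38 for Bhlhe40 and -0.35 for Tef (limma, adjusted p = 0.0252, 0.0381, 0.00116, 0.00537 and 0.0440). Without the libraries that stood apart the adjusted p was 0.741, 0.671, 0.0594, 0.0303 and 0.594 (limma).

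The correlation between mice differed between Mu-RE and KO, by permutation of single mice, for 6 pairs of clock genes. On Fisher's z scale the difference, Mu-RE minus KO, was -0.785 for Arntl and Per2, -0.524 for Arntl and Per3, 0.758 for Nr1d1 and Dbp, 1.21 for Dbp and Per2, 0.965 for Dbp and Per3 and 0.546 for Per2 and Per3. The adjusted permutation p was 0.00253, 0.0311, 0.00318, 0.0003, 0.0006 and 0.0346. With whole age and time sets exchanged, the adjusted exact permutation p was 0.061, 0.128, 0.115, 0.0293, 0.0749 and 0.223, so 1 of the 6 passed.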

How the results depend on the processing

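Counts of called genes moved with several settings. For the rhythm in Mu-RE mice (13), they were 6 without a sex term, 61 with the length term, 20 without the libraries that stood apart, 7 at 10-12 weeks and 0 at 26 weeks alone; for the KO rhythm (6), 2 on log2(FPKM + 1) and 0 at 26 weeks alone. For the slope on Arntl in Mu-RE mice (8), they were 3 with no filter on low values, 185 after centring by age only, 202 with a cosine in place of times, 2 at 10-12 weeks and 0 at 26 weeks alone, 4 without the libraries that stood apart and 2 in age, time and sex sets. For the slope in KO mice (3249), they were 797 with the length term, 0 at 10-12 weeks and 1867 at 26 weeks alone, 1769 without the libraries that stood apart and 2032 in age, time and sex sets. In WT mice (52) the length term gave 146, and leaving out the library that stood apart gave 0. For the slope difference of Mu-RE and KO (3293), they were 899, 1821 and 1142 with the length term, without the libraries that stood apart and in age, time and sex sets. The scatter calls (1232) became 158 without the libraries that stood apart and 0 with 1 value per age and time, with all libraries and without those. The rhythm difference of the ages (0) became 1 without the libraries that stood apart. Pairs of clock genes called (6) became 1 in age, time and sex sets, and SD ratios to KO called (4) became 0 by median absolute deviation. The log2 SD ratio of Per3 to KO (-0.56) turned to 1.13 on log2(FPKM + 1). The cause was not tested in these cases.

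Leaving out 1 mouse per age and time gave 0 to 7 genes for the Mu-RE rhythm, 0 to 2 for the KO rhythm, 66 to 126 (117 without replicate 3) for the rhythm difference from WT (279), 0 for those from KO and between ages, 1 to 2 for the Mu-RE slope, 466 to 2863 (1275 without replicate 2) for the KO slope, 612 to 3109 (1348 without replicate 2) for the slope difference and 125 to 1397 for scatter. Leaving out single mice gave 5 to 7 pairs and 3 to 4 SD ratios to KO, and all 5 ratios to WT in every case. Without single mice, r ranged from -0.744 to -0.653 for Arntl and Dbp and from 0.778 to 0.845 for Dbp and Per3; for Per2 and Per3 it ranged from 0.289 to 0.446 and missed the threshold in 16 of 49 cases. The Per3 SD ratio to KO missed it in 43 of 96.

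Replicate numbers did not pair the mice: same-numbered Mu-RE and KO mice correlated between -0.093 and 0.339 at 10-12 weeks (23 pairs) and between -0.183 and 0.539 at 26 weeks (22 pairs), and 1 and 5 mice correlated best with their own number. With the replicate block, the slope difference gave 2 genes, the scatter test 1200 and the rhythm difference from KO 0.

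Depth limits Per2, Per3 and Dbp most in KO mice, where medians of 66 to 96 reads stand behind a value.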

Other observations

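In the 23 Mu-RE mice of 26 weeks on time-restricted feeding, which the choice of mice did not use, the same genes varied mainly with time. Arntl had an amplitude of 1.15 (SE 0.10) with a peak at ZT 22.2, Nr1d1 1.47 (SE 0.15) at ZT 3.25, Dbp 1.34 (SE 0.13) at ZT 7.77 and Per3 0.49 (SE 0.09) at ZT 7.45 (limma, adjusted p = 3.3e-06, 2.1e-05, 1.8e-05 and 0.00631). Per2 had 0.59 (SE 0.17, limma adjusted p = 0.0721). Of the spread over the day, 85.9% lay between times for Arntl and 88.1% for Dbp. The clock vector had a median length of 0.839, and 19 of 23 mice had a phase within 3 h of their time of sampling. Within a time the SD was 0.34 for Arntl and 0.38 for Dbp, against 0.36 and 0.61 in the ad libitum mice. Residual correlations were -0.641 for Arntl and Dbp and 0.778 for Per2 and Per3 (rho -0.513 and 0.749, adjusted permutation p for r 0.171 and 0.0026). The difference between feeding regimes was not tested here.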
